A study of Mus musculus with 6 samples.

Results

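The enzymes that join farnesyl diphosphate into squalene and turn squalene into cholesterol were examined in mouse liver through 9 genes: Fdft1, Sqle, Lss, Cyp51, Msmo1, Nsdhl, Hsd17b7, Sc5d and Dhcr7. They were taken by name from a table of 54600 genes, each name matched 1 row, and all 9 passed the filter on low values. The libraries came from livers of mice with a hepatocyte-specific knockout of HIF-2α (KO) and of wild-type (WT) mice, 3 of each, and both groups had eaten a high-fat diet for 16 weeks. No group on another diet was analysed here. The promoter that drives the Cre, the strain, age and sex are not given in the sources used here, and other liver cells of a hepatocyte-specific knockout still carry the gene. The labels do not say that each library came from its own animal, so the p-values measure only the spread between these libraries.

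Cholesterol is built from acetyl-CoA through mevalonate and farnesyl diphosphate. Squalene synthase draws farnesyl units into the sterol branch, squalene epoxidase and lanosterol synthase make the first ring-closed sterol, and a chain of demethylases, reductases and a desaturase trims lanosterol to cholesterol. The liver is a main site of this synthesis, and the genes of the pathway are known shared targets of SREBP-2, a transcription factor that is released from the endoplasmic reticulum when sterols are scarce.

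Levels are in TPM, a length-corrected share of all transcripts in a library, so that different genes can be set side by side but sequencing depth is unknown. A library held 11013 to 11708 genes at 1 TPM or more. Its top 20 genes made up 41.2% to 46.9% of the TPM, and mitochondrial transcripts 16.2% to 24.5%. The hepatocyte markers Alb, Ttr and Apoa1 were high in every library, with Alb between 28784 and 48972 TPM. Epas1, the gene that encodes HIF-2α, went against the genotype labels. Epas1 had 26.6, 35.1 and 29.4 TPM where the label says KO, against 23.8, 26.0 and 21.0 TPM where it says WT, and each library labelled KO was above each labelled WT (limma adjusted p = 0.993; exact permutation p = 0.10, the smallest that 3 against 3 allows). Of all genes tested with limma, 8.23% had non-overlapping groups with KO higher, and 74.5% had a higher mean in KO on the log2(TPM + 1) scale. A whole-gene value does not show whether a deleted exon was missing, so KO and WT are used here for the libraries labelled that way.

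No enzyme of the squalene-to-cholesterol route passed the test between genotypes. Of 11440 genes tested with limma, 1 was called at an adjusted p below 0.05, a background of 0.00874%, and 0 of the 9 members were called. At an unadjusted p below 0.05 there were likewise 0 members, against 3.15% of all tested genes (0.385% with KO lower). All 9 mean differences were below 0 (lower in KO), while 25.5% of all tested genes were below 0. The 9 genes share regulation and were measured in the same 6 libraries. They are therefore not replicates of each other, and this count carries no test. The median difference of the members was -0.27 on the log2(TPM + 1) scale, and that of all tested genes was 0.09. With median-ratio scaling in place of TPM alone, 53.6% of all tested genes were below 0 with a median of -0.01, and the members, still 9 of 9 below 0, had a median of -0.39. The members' differences lay between -0.42 for Msmo1 and -0.08 for Sqle. The groups overlapped for every member, where 0.857% of tested genes had non-overlapping groups with KO lower and 8.23% with KO higher. In bulk tissue, fewer cells of a type and less RNA per cell cannot be told apart.

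**Figure D1:**
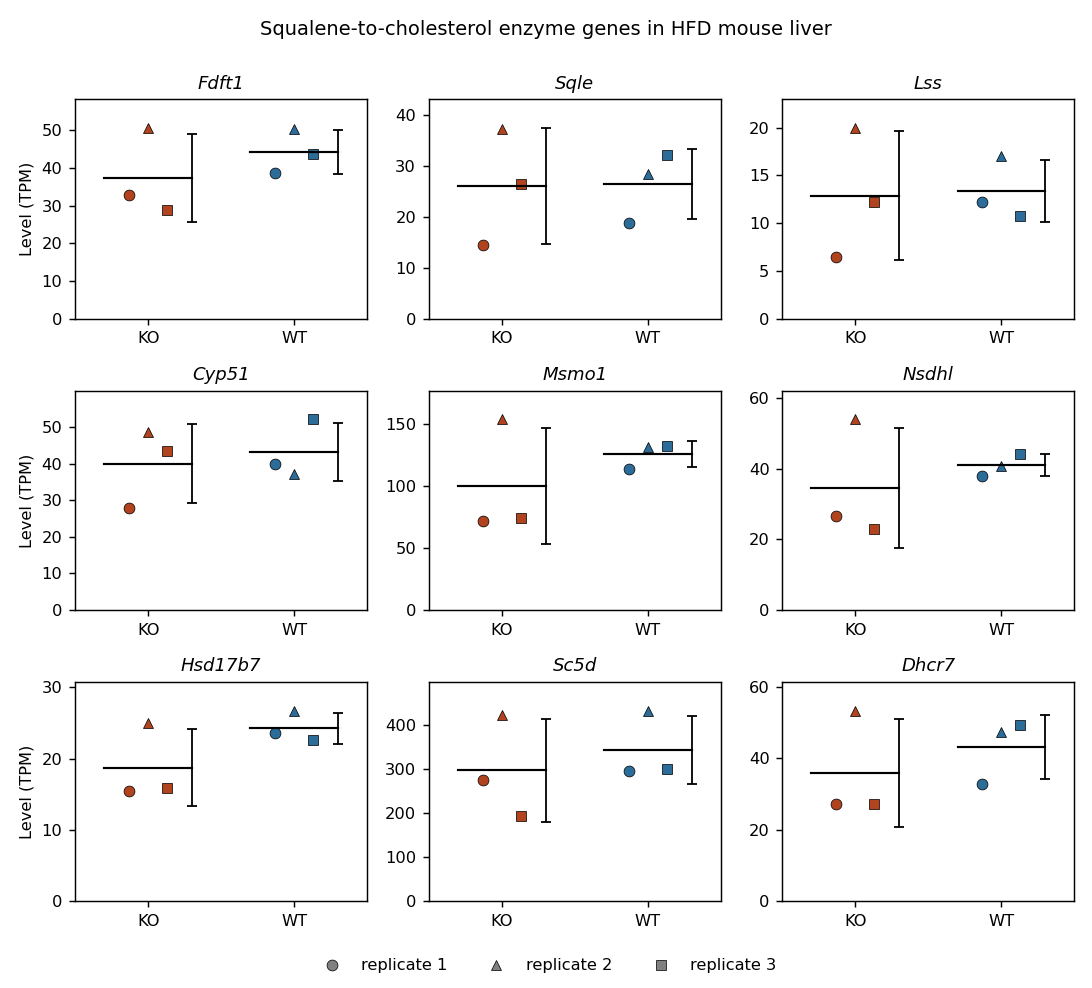
TPM of each of the 9 squalene-to-cholesterol genes in the libraries labelled KO (left) and WT (right), on linear axes that start at 0; marker shapes give the replicate number, horizontal lines the means and whiskers the SD (n = 3 each). KO replicate 2 is the highest of the KO libraries for all 9 genes, against 40.6% of all tested genes. For 6 of the 9 it is also above every WT library, against 29.1% of all tested genes.

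The pathway opens with Fdft1, squalene synthase, which joins a pair of farnesyl diphosphates head to head (ENSMUSG00000021273; mm10 chr14:63145150-63179578, minus strand). Fdft1 was at 32.7, 50.6 and 28.9 TPM in KO replicates 1, 2 and 3, against 38.8, 50.4 and 43.7 TPM in WT replicates 1, 2 and 3. KO replicates 1 and 3 were below all WT libraries, and KO replicate 2 was just above the highest of them. The mean was 37.4 ± 11.6 TPM in KO and 44.3 ± 5.84 TPM in WT (SD, n = 3 each), a difference of -0.27 (SE 0.22, 95% interval -0.78 to 0.24; limma adjusted p = 0.993). The 3′ end of Fdft1 shares 774 bases with Ctsb, a lysosomal protease gene on the opposite strand with a mean of 223 TPM. Whether the counting used strand is not given, so the level of Fdft1 is uncertain.

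Sqle, squalene epoxidase, adds the oxygen that precedes ring closure and is a known control point of the pathway (ENSMUSG00000022351; chr15:59315077-59331192, plus strand). Its values were 14.4, 37.2 and 26.4 TPM in KO and 18.7, 28.4 and 32.1 TPM in WT. The lowest and the highest of the 6 values were both KO libraries, and the means of 26.0 ± 11.4 TPM in KO and 26.4 ± 6.93 TPM in WT were nearly equal (SD, n = 3 each). The difference was -0.08 (95% interval -0.89 to 0.72). Lss, lanosterol synthase, folds the epoxide into lanosterol (MSTRG.276|ENSMUSG00000033105; chr10:76531588-76557138, plus strand). Lss was at 6.48, 19.97 and 12.2 TPM in KO, against 12.2, 17.0 and 10.8 TPM in WT. Here too a KO library was lowest and another highest, with 3.08-fold between them, the widest KO range among the 9 genes. The Lss difference was -0.15 (95% interval -0.99 to 0.70).

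The first steps on lanosterol remove methyl groups. Cyp51, the lanosterol 14α-demethylase, is a cytochrome P450 (ENSMUSG00000001467; chr5:4081145-4104746, minus strand). It was at 27.9, 48.7 and 43.4 TPM in KO and at 40.0, 37.3 and 52.2 TPM in WT. KO replicate 1 stood below all WT libraries and the other KO libraries lay inside the WT range. Its difference of -0.13 had a 95% interval of -0.67 to 0.41. Cyp51 was the member whose KO replicate 2 stood out least, at 1.36 times the mean of the other KO libraries. Its last 166 bases overlap Akap9 on the opposite strand (mean 3.66 TPM).

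Msmo1, the C4-methylsterol oxidase, starts the removal of the methyl groups at carbon 4 (MSTRG.3436|ENSMUSG00000031604; chr8:64718139-64733792, minus strand). Msmo1 was at 71.6, 153.4 and 74.2 TPM in KO, against 113.3, 131.0 and 131.6 TPM in WT. KO replicates 1 and 3 were well below the WT libraries and KO replicate 2 was above all of them. The mean was 99.7 ± 46.5 TPM in KO and 125.3 ± 10.4 TPM in WT (SD, n = 3 each), a difference of -0.42 (SE 0.29, 95% interval -1.08 to 0.25; limma adjusted p = 0.993). Nsdhl, the dehydrogenase that decarboxylates the same carbon, lies on the X chromosome (ENSMUSG00000031349; chrX:72918557-72958514, plus strand). Nsdhl was at 26.5, 54.0 and 23.1 TPM in KO, against 38.0, 40.9 and 44.3 TPM in WT, the same arrangement as Msmo1. Its difference was -0.34 (95% interval -1.03 to 0.35). Hsd17b7, the 3-ketosteroid reductase that ends the carbon 4 cycle, is also able to make estradiol (MSTRG.216|ENSMUSG00000026675; chr1:169949535-169969241, minus strand). Hsd17b7 was at 15.4, 25.0 and 15.8 TPM in KO, against 23.5, 26.7 and 22.6 TPM in WT, and KO replicate 2 lay inside the WT range. With a difference of -0.39 (95% interval -0.85 to 0.07), it had the smallest p among the members (unadjusted limma p = 0.088, adjusted p = 0.993; exact permutation p = 0.3).

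The last enzymes rearrange and reduce double bonds. Sc5d, the lathosterol 5-desaturase, makes 7-dehydrocholesterol, the shared precursor of cholesterol and vitamin D (MSTRG.3648|ENSMUSG00000032018; chr9:42251595-42264256, minus strand). Sc5d was at 276.3, 424.6 and 193.0 TPM in KO, against 296.2, 433.3 and 301.5 TPM in WT. Replicate 2 was the highest in both groups, and KO replicates 1 and 3 were below all WT libraries. The Sc5d difference was -0.26 (95% interval -0.95 to 0.43). Dhcr7, the 7-dehydrocholesterol reductase whose human deficiency causes Smith-Lemli-Opitz syndrome, gives cholesterol (MSTRG.3152|ENSMUSG00000058454; chr7:143823145-143848410, plus strand). Dhcr7 was at 27.3, 53.2 and 27.2 TPM in KO, against 32.9, 47.3 and 49.2 TPM in WT, so that KO replicates 1 and 3 were again below all WT libraries and KO replicate 2 above them. Its difference was -0.31 (95% interval -0.98 to 0.36). Exact permutation p-values of the 9 members lay between 0.3 and 1.0.

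**Figure D2:**
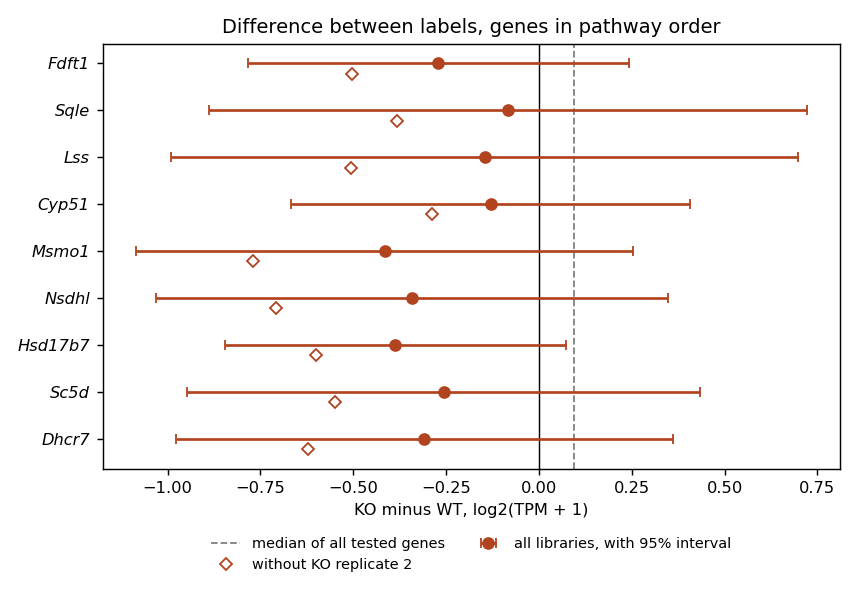
KO minus WT difference in log2(TPM + 1) for the 9 genes, from all libraries (filled circles, with 95% limma intervals as bars) and without KO replicate 2 (open diamonds, no interval drawn); the dashed line is the median of all tested genes, 0.09. With all libraries every interval includes 0, and without KO replicate 2 the differences lie further below 0.

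Set side by side per length, the enzymes differed widely in level. Sc5d averaged 320.8 TPM over the 6 libraries and Msmo1 112.5 TPM, and the ranges of this pair overlapped neither with each other nor with the next gene. Cyp51 (41.6 TPM), Fdft1 (40.8 TPM), Dhcr7 (39.5 TPM) and Nsdhl (37.8 TPM) were not separated beyond their spread. Sqle (26.2 TPM), Hsd17b7 (21.5 TPM) and Lss (13.1 TPM) closed the order with overlapping ranges, although Hsd17b7 was above Lss in 6 of 6 libraries. Lss, the scarcest, made up between 1.30% and 2.75% of the members' summed TPM, and Sc5d between 43.5% and 55.4%. The sum of the 9 genes was 498.7, 866.7 and 444.3 TPM in KO (603.2 ± 229.8, SD, n = 3) and 613.6, 812.4 and 687.9 TPM in WT (704.6 ± 100.4, SD, n = 3). The sums of KO replicates 1 and 3 lay below all WT sums and that of KO replicate 2 above them.

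The KO libraries were spread more widely than the WT libraries. Their standard deviation relative to the mean exceeded that of WT for 9 of 9 members, against 52.2% of all tested genes. It ranged between 27.0% for Cyp51 and 52.5% for Lss in KO, and between 7.62% for Nsdhl and 26.2% for Sqle in WT. KO replicate 2 was the highest KO library for 9 of 9 members, where 40.6% of tested genes had it highest. It was at least 1.5 times the mean of the other KO libraries for 8 of 9 members, against 9.66% of tested genes, with a median ratio of 1.82. For WT replicate 2 the same median ratio to the other WT libraries was 1.152. KO replicate 1 was the lowest of all 6 libraries for 5 of 9 members, against 6.27% of tested genes. KO replicate 3 was the lowest for 4 of 9, against 20.35%. KO replicates 1 and 3 were both below all WT libraries for Fdft1, Msmo1, Nsdhl, Hsd17b7, Sc5d and Dhcr7, 6 of 9 members against 3.16% of tested genes. In those 6 members KO replicate 2 was not below all WT libraries, and 2.3% of tested genes had this full pattern. These patterns were described after the values were seen and carry no test.

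Leaving out KO replicate 2 moved the members' median difference to -0.55, while the median of all tested genes was 0.07. Then 5 of 9 members had an unadjusted limma p below 0.05, namely Fdft1, Msmo1, Nsdhl, Hsd17b7 and Dhcr7, all lower in KO. Of all tested genes, 2.96% had such a p in either direction and 0.769% with KO lower. In this fit 0 members were called (smallest adjusted p = 0.9999). This library was picked after it was seen to stand apart. In each of the other 5 fits that leave out 1 library, 0 members had an unadjusted limma p below 0.05. For Msmo1 the difference without this library was -0.77, and for Nsdhl it was -0.71. Leaving out KO replicate 1 gave a median of -0.20 with 6 members below 0, and leaving out KO replicate 3 gave -0.15 with 8 members below 0. The replicate numbers of the labels may pair the libraries. KO was below WT for 9 of 9 members in the libraries numbered 1, for 2 of 9 in those numbered 2 (Hsd17b7 and Sc5d) and for 8 of 9 in those numbered 3, all except Lss. The same counts over all tested genes were 42.8%, 30.5% and 31.9%. With the replicate number as a block, 0 members and 0 genes were called, against 1 gene without it, and 1 member (Hsd17b7) had an unadjusted limma p below 0.05, against 0.918% of genes with KO lower. With the block and median-ratio scaling together, 3 members did, against 2.52% of genes with KO lower, and 0 were called. Across all tested genes, KO replicate 2 was closest to WT replicate 2 (Spearman rho 0.974), KO replicate 1 to WT replicate 1 (0.978) and KO replicate 3 to WT replicate 3 (0.965).

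Lists of cell type and other markers were summed in the same libraries. Of all tested genes 74.5% were above 0 (higher in KO) in TPM and 46.4% with median-ratio scaling, so counts above 0 are read against those shares. The sums below are in TPM without that scaling, so the general excess above 0 in TPM also bears on their ranges. The 11 tested of 12 listed hepatocyte markers were all above 0, and 8 with median-ratio scaling. None was called or had an unadjusted limma p below 0.05. They summed to between 78981 and 98070 TPM in KO and between 70383 and 81927 TPM in WT, with KO replicate 2 highest. All 10 tested of 12 stellate cell and fibroblast markers were above 0, and 9 with median-ratio scaling. An unadjusted limma p below 0.05 was reached by 5, against 3.15% of all tested genes, and 0 were called. They summed to between 150.3 and 172.5 TPM in KO and between 123.9 and 145.8 TPM in WT. Endothelial markers (9 of 10 above 0, 6 with median-ratio scaling, 2 at an unadjusted limma p below 0.05, 0 called) summed to between 135.7 and 151.6 TPM in KO and between 124.8 and 134.7 TPM in WT. Kupffer cell markers (10 of 11 tested above 0, 7 with median-ratio scaling, 0 at an unadjusted limma p below 0.05, 0 called) summed to between 274.8 and 290.0 TPM in KO and between 214.4 and 304.5 TPM in WT. Lymphocyte markers, 3 of 10 tested and 0 called, summed to 23.6 TPM in KO replicate 2 and 23.1 TPM in WT replicate 2. They summed to between 7.003 and 9.79 TPM in the other libraries. Most of the sum in both replicates 2 was the single gene Ighm, at 15.5 TPM in KO and 14.8 TPM in WT. Ighm lay between 1.59 and 3.78 TPM in the other libraries. Cholangiocyte markers, 2 of 7 tested and 0 called, summed to between 34.9 and 56.4 TPM in KO and between 25.0 and 35.3 TPM in WT, most of it Spp1, which other liver cells also express. Hypoxia target genes were above 0 in 7 of 10 tested, close to the share of all genes, with a median of 0.12 against 0.09, 2 higher at an unadjusted limma p below 0.05 and 0 called. They summed to 385.8 TPM in KO replicate 2 and 322.8 TPM in WT replicate 2, and to between 174.2 and 240.0 TPM in the other libraries. Genes that respond to stress and tissue handling (5 of 7 tested above 0, 1 at an unadjusted limma p below 0.05, 0 called) had a median of 0.55 and summed to 96.9 TPM in KO replicate 3, and to between 41.7 and 71.9 TPM in the other libraries. Clock genes (10 of 15 tested above 0, 1 at an unadjusted limma p below 0.05, 0 called) summed to 156.9 TPM in KO replicate 3 and 142.7 TPM in WT replicate 3, and to between 211.8 and 314.5 TPM in the other libraries. None of the defining cell type markers was at 0 in all libraries. Cd3e of T cells and Krt19 of cholangiocytes were below 1 TPM in each. Other genes of those lists reached higher values, among them Trac (1.89 TPM), Ighm (15.5 TPM) and Spp1 (52.8 TPM). The part of these markers and of the stress and clock genes in the members' values was not tested.

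The levels of the 9 genes were correlated across libraries. Over the 6 libraries, Pearson correlations of log2(TPM + 1) between the 36 pairs of members lay between 0.10 (Cyp51 with Sc5d) and 0.98 (Msmo1 with Nsdhl), with a median of 0.78. With the group means taken out the median was 0.79. Fdft1 had the highest median correlation with the other members (0.93), followed by Msmo1 (0.88) and Nsdhl (0.87), and Sqle (0.67) and Cyp51 (0.58) had the lowest. These are descriptions of 6 points that share library and scaling. Of 7080 genes averaging 5 TPM or more, the profile most like the members' mean was that of Fdps, farnesyl diphosphate synthase, which makes the substrate of Fdft1 (r = 0.99). Fdps was at 109.6, 312.7 and 123.9 TPM in KO, against 155.9, 228.0 and 207.9 TPM in WT, so KO replicate 2 was again above all WT libraries and the other KO libraries below. Tm7sf2, a sterol C14-reductase of the same route, had r = 0.95. The other 8 of the 10 most similar genes were Oxnad1, Pmf1, Rdh11, Ppp1r3b, Slc6a12, Manea, Bcat2 and Ehd3, with r between 0.93 and 0.95. Genes most like Sqle alone were Cyp4f15, Gtf3c1, Zfand4, Fcna, Gcat, Rnf146, Tjp1, Erbb3, Gm48415 and Tpst1, with r between 0.92 and 0.96 over the same 6 libraries.

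**Figure D3:**
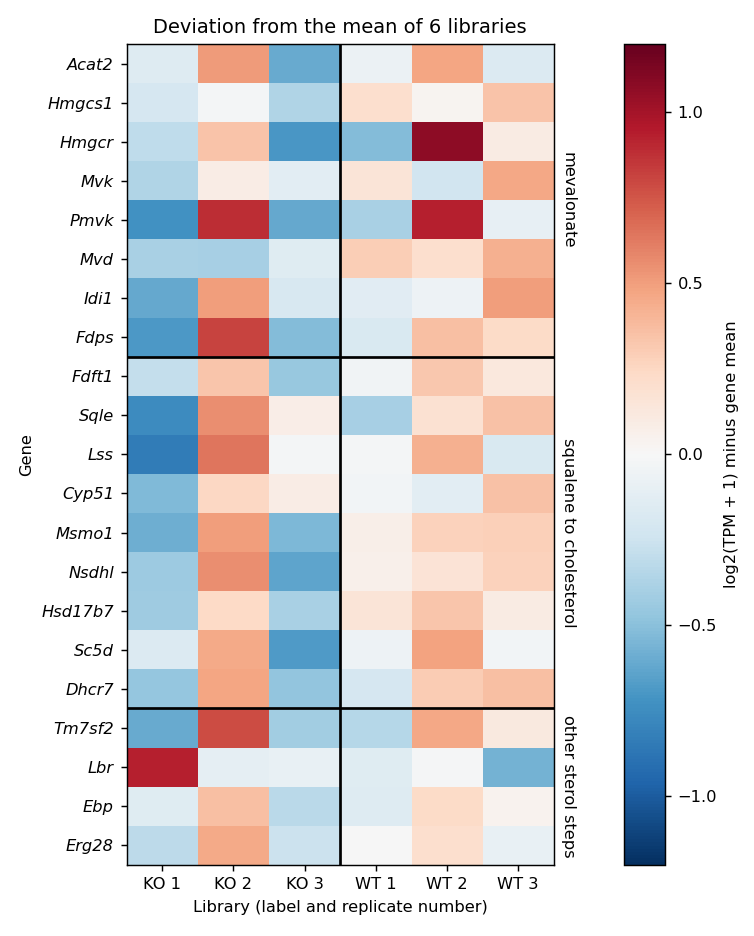
Deviation of log2(TPM + 1) from each gene's mean over the 6 libraries, for the mevalonate genes, the 9 members and the other genes after squalene, with KO libraries left of WT libraries. Most rows are high in KO replicate 2 and low in KO replicate 1, while for Mvd and Hmgcs1 each KO library is below each WT library.

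Promoter sequence was compared because the members varied together. RefSeq (GRCm38.p6, the assembly of mm10) gave promoters for 7 of 9 members, all but Fdft1 and Sqle. In the 250 bases before the start, both strands were searched for CCAAT, the core of NF-Y sites, for TCACNNCA, a loose form of the sterol regulatory element bound by SREBPs, and for 5 other short motifs. For each gene a stretch that holds such matches is shown, to let the shared words be compared, 5′ to 3′ on the strand of the gene. Capitals mark TCACNNCA and CCAAT, the last written ATTGG where it lies on the opposite strand.
Cyp51: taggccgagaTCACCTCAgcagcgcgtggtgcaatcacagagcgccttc
Hsd17b7: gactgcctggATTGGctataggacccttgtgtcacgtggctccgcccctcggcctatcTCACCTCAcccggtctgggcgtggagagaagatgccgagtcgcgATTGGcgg
Sc5d: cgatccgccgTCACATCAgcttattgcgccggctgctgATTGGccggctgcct
Dhcr7: cgtctgtgaccTCACATCAtctggggcgga
Msmo1: gcacggaCCAATCACTGCAcggcgaaggca
Lss: tgatgctctgATTGGccgagctcgcatc
Nsdhl: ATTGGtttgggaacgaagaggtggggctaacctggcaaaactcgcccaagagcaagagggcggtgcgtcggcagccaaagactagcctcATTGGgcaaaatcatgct

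The Cyp51 stretch is chr5:4104747-4104795 on the minus strand, that of Hsd17b7 chr1:169969271-169969380 (minus) and that of Sc5d chr9:42264310-42264362 (minus). Dhcr7 is shown at chr7:143830171-143830200 (plus), before 1 of its 3 starts, Msmo1 at chr8:64733652-64733681 (minus), Lss at chr10:76531533-76531560 (plus) and Nsdhl at chrX:72918412-72918518 (plus). The loose sterol element TCACNNCA was in 5 of 7 member promoters, against 12.98% of genes with a RefSeq promoter, and the stricter TCACNCCAC in 0 of 7, against 1.22%. In Msmo1 the match shown overlaps CCAAT by 1 base. Cyp51 and Hsd17b7 shared the exact word TCACCTCA (1.12% of genes), and Sc5d and Dhcr7 shared TCACATCA (0.76%); these words were chosen after the sequences were seen. CCAAT was in 7 of 7 (37.5% of genes) and GGGCGG, the core of Sp1 sites, in 7 of 7 (35.4%). The E-box CACGTG was in Dhcr7, Hsd17b7 and Sc5d (6.86% of genes). Of the hypoxia response element cores, ACGTG was in the same 3 promoters (18.5% of genes), inside the E-box, and GCGTG in 7 of 7 (30.9%). The Dhcr7 and Msmo1 stretches lie inside an exon of the GENCODE annotation, although before the RefSeq start used here. A match describes letters in this window and is not a binding site.

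**Figure D4:**
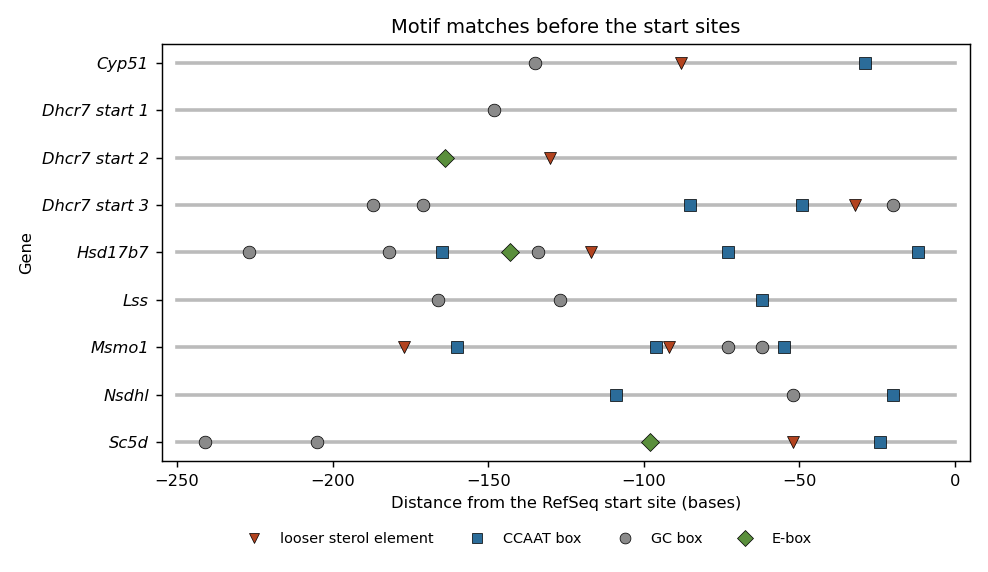
Positions of the loose sterol element, CCAAT boxes, GC boxes and the E-box in the 250 bases before each start of the 7 members with a RefSeq promoter (3 starts for Dhcr7), in bases from the start. CCAAT and GC boxes occur in all 7 genes, the loose sterol element in 5 and the E-box in 3.

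Upstream of squalene, 8 of 8 tested mevalonate genes were below 0, against 25.5% of all tested genes. None was called, and 2 had an unadjusted limma p below 0.05 with KO lower, against 0.385% of tested genes. They were measured in the same 6 libraries as the members, so their count is not independent of the members' count. The median difference of the mevalonate genes was -0.28. Without KO replicate 1 or without WT replicate 2, 6 of 8 were below 0, against 33.4% and 25.3% of all tested genes. Without KO replicate 3, 7 of 8 were below 0, against 20.4%. Mvd, mevalonate diphosphate decarboxylase, was at 5.27, 5.23 and 6.42 TPM in KO, against 9.07, 8.38 and 9.999 TPM in WT. Hmgcs1, HMG-CoA synthase, was at 90.4, 102.3 and 80.8 TPM in KO, against 119.9, 106.6 and 132.0 TPM in WT. For this pair the groups did not overlap, unlike any squalene-to-cholesterol gene, and KO replicate 2 did not stand out. Groups did not overlap with KO lower for 0.857% of all tested genes. The limma differences were -0.61 for Mvd and -0.39 for Hmgcs1 (adjusted p = 0.993 for both; exact permutation p = 0.10 for both). Mvk, mevalonate kinase, had the next smallest p with a difference of -0.26 and overlapping groups.

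Of 4 other tested genes after squalene, 3 were below 0 and 1 above, with a median of -0.07. In this list 0 were called and 0 had an unadjusted limma p below 0.05. Without KO replicate 3 or without WT replicate 2, 0 of 4 were below 0. Without KO replicate 1, 1 of 4 was below 0. Tm7sf2 was at 50.6, 133.9 and 58.0 TPM in KO and 61.2, 107.6 and 84.4 TPM in WT, with KO replicate 2 highest of all 6. Ebp, the sterol isomerase, was at 123.6, 176.5 and 109.5 TPM in KO and 122.8, 161.4 and 140.9 TPM in WT, also with KO replicate 2 highest. Lbr, a nuclear envelope protein with sterol reductase activity, was at 9.85, 4.28 and 4.35 TPM in KO and 4.15, 4.66 and 2.85 TPM in WT, a difference of 0.48 carried by KO replicate 1.

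Among 14 tested genes of sterol sensing and uptake, 7 were below and 7 above 0, where 25.5% of all tested genes were below 0. With median-ratio scaling 10 were below and 4 above, where 53.6% of all tested genes were below 0. In TPM the median was 0.01, 0 were called and 1 had an unadjusted limma p below 0.05. That gene was Insig1, which retains the SREBP escort in the endoplasmic reticulum and is itself a known SREBP target. Insig1 was at 108.4, 102.6 and 98.99 TPM in KO, against 120.2, 161.8 and 157.0 TPM in WT, and the groups did not overlap (difference -0.49, limma adjusted p = 0.993; exact permutation p = 0.10). Insig2, its relative, was named after its values were seen. It was at 146.4, 54.8 and 191.9 TPM in KO and 149.9, 130.8 and 149.6 TPM in WT, so that KO replicate 2 was the lowest library there. Mbtps2, a protease that releases SREBPs, differed by -0.37 and the oxysterol receptor Nr1h2 by 0.24, both without overlap and uncalled. Groups without overlap made up 0.857% of tested genes with KO lower and 8.23% with KO higher.

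Genes that use farnesyl diphosphate for other products, that handle finished cholesterol or that pass electrons to the sterol oxidases are set here against all tested genes, of which 25.5% were below 0 with a median of 0.09. The farnesyl branch had 3 of 8 below 0 and a median of 0.07. With median-ratio scaling 6 of 8 in this branch were below 0, against 53.6% of all tested genes. In it Ggps1, geranylgeranyl diphosphate synthase, was at 5.62, 5.57 and 6.52 TPM in KO and 3.54, 5.54 and 3.77 TPM in WT, and Pdss1 and Nus1 differed by 0.38 and 0.11. Cholesterol use and export had 2 of 11 below 0 and a median of 0.11, near the values of all genes, with differences of 0.35 for Soat1, 0.27 for Abca1 and 0.25 for Soat2. The electron donors had 4 of 5 below 0 and a median of -0.04. Among them Por, the P450 reductase, was at 103.1, 202.8 and 68.8 TPM in KO and 79.0, 195.5 and 69.0 TPM in WT, high in replicate 2 of both groups. Cyb5b and Cyb5r3 differed by -0.23 and -0.09. In these 3 lists 0 genes were called and 0 had an unadjusted limma p below 0.05.

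Fatty acid synthesis, known to be under SREBP-1c, was below 0 for 13 of 13 tested genes, with 0 called, 0 at an unadjusted limma p below 0.05 and a median of -0.40. That count rested on single libraries. KO replicate 3 was the lowest of all 6 libraries for 13 of 13 genes, and without it 2 of 13 were below 0 with a median of 0.20. Without WT replicate 2, 5 of 13 were below 0 with a median of 0.11. In the libraries numbered 1, KO was below WT for 3 of 13. The summed level of the list was 3004, 6270 and 780.9 TPM in KO, against 1986, 9351 and 2738 TPM in WT. Replicate 2 was thus highest in both groups, as it was for the squalene-to-cholesterol sum. For that sum KO replicate 2 (866.7 TPM) exceeded WT replicate 2 (812.4 TPM), while for fatty acid synthesis it did not. Fasn, the synthase itself, had 166.1, 191.9 and 33.0 TPM in KO and 156.9, 399.4 and 118.6 TPM in WT. Gpam and Acly differed by -0.40 and -0.49 with overlapping groups.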

How the data were processed

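The authors deposited 1 table of TPM for 54600 genes in 6 liver RNA-seq libraries, 3 KO and 3 WT. Per the submitters' processing notes, the tools were limma, DESeq2, featureCounts, HISAT2 and fastp, with mm10; versions, roles, annotation and counting mode are not given in the sources used here. TPM keeps no depth, so no count model or counting interval was used. Members were matched by Ensembl identifier to GENCODE M21. The 11440 genes that reached 1 TPM in 3 or more libraries entered a two-sided limma test (version 3.58.1, R 4.3.3; variance trend) of log2(TPM + 1), called at a Benjamini-Hochberg adjusted p below 0.05. Fold changes on this scale understate changes of low genes. The test was also run on simulated libraries with independent noise for each gene. These had no correlation between genes and no pairing of libraries, so that run does not cover such features of the data. Members, lists and alternatives were chosen with earlier results of these data known. The genes named are the members, Epas1 and defining cell type markers. Of each of 7 related lists, up to 3 genes with the smallest p are named. The 10 genes most correlated with the members' profile and with Sqle are also named. Insig2, Ighm, Trac and Spp1 were chosen after their values were seen. A gene of the sterol lists is not reported here and was left out of their counts.

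The libraries differed from each other (Spearman rho 0.945 to 0.978, at most 0.0612% equal values), so none repeats another. Each was treated as 1 replicate, although such differences do not show that each came from its own animal. After the group means were taken out, libraries with the same number correlated at 0.16, 0.41 and 0.38 (each over 0.1) and other pairs at -0.37 to 0.03. Deviations within a group sum to 0, so positive values for same-number pairs push the other pairs down. The low values of the other pairs are therefore not separate evidence of pairing. The numbers were treated as a possible pairing, from the data and not the labels, and the fit with the block was an alternative. Other alternatives were pseudocounts of 0.1 and 5, no filter or 5 TPM, median-ratio scaling, quantile normalization, no variance trend, TPM recomputed without mitochondrial genes and the top 20 genes, and leaving out libraries. Transcripts were compared with BLAST 2.17.0 at 90% identity over at least 200 bases: Fdft1 has a processed pseudogene, Gm6781, 97.4% identical over 1249 bases and listed at 0, and Sc5d has Gm31520, 90.3% over 206 bases and at most 0.046 TPM.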

Additional observations from a re-analysis of the deposited data

How the results depend on the processing

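Under 19 alternative settings 0 of 9 members were called, with adjusted limma p-values between 0.724 and 0.9999. Of 171 combinations of member and setting, 160 kept a difference below 0 and 11 reversed. The reversals were in Sqle (0.0525 without both libraries numbered 1, 0.0107 without both numbered 3, and -0.38 to 0.27 leaving out 1 library), Lss (0.19 without both numbered 1, and -0.50 to 0.24), Cyp51 (0.0574 without both numbered 1, and -0.29 to 0.10) and Sc5d (-0.55 to 0.0182, the higher value without KO replicate 3); the cause was not tested. The members' median lay between -0.55 and -0.15 leaving out 1 library. It was -0.29 without both numbered 1, -0.41 without both numbered 2 and -0.06 without both numbered 3. An unadjusted limma p below 0.05 was reached by 3 members without both numbered 2, against 2.07% of all tested genes. No member reached it without both numbered 1 or 3. Hsd17b7 alone reached it with median-ratio scaling, with quantile normalization and without mitochondrial and top 20 genes. The shares of all tested genes were then 2.59% to 2.70%. The replicate block gave a smallest adjusted limma p of 0.724 among the members and changed no call of a member. Over all genes, 1 was called, against 0 with a pseudocount of 5, no filter, a filter of 5 TPM, quantile normalization, the block alone or with median-ratio scaling, or without both libraries numbered 1 or 3, against 2 without both numbered 2, and 0 to 2 leaving out 1 library. Of the other pathway genes 40 were below 0, and 18 to 44 leaving out 1 library, with 18 without KO replicate 3. The looser sterol element was in 5 promoters and the stricter in 0. With 3 libraries a group the exact test cannot go below p = 0.10, and depth is unknown.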
